A study of Mus musculus with 6 samples.

Results

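The 10 genes described here are linked to epithelial identity. They are the splicing regulators Esrp1 and Esrp2, the transcription factors Grhl1, Grhl2, Ovol1, Ovol2, Elf3, Ehf and Klf5, and the trafficking gene Rab25. They were taken by symbol from tables that list 19179 genes, and each has 1 row in each of 6 libraries. The cells were 4T1, a mammary carcinoma line of the mouse strain BALB/C. Single cells were placed in the wells of 96-well plates, and after 14 days 10 clones of each kind were taken, in 3 batches from 3 independent experiments. Whether each library pooled 10 clones is not clear from the labels. One group is 3 libraries with the tissue label breast cancer stem cell (stem-labelled below), and the other group is 3 libraries labelled breast cancer cell (other below). The labels shorten the kinds to SC and NSC and do not say how a clone was assigned, and no treatment or genetic change is given for either.

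Grainyhead-like (GRHL) and OVO-like (OVOL) proteins bind DNA and maintain epithelial genes such as the one for E-cadherin, while ZEB, SNAI and TWIST factors repress that programme during the epithelial to mesenchymal transition. ESRP proteins act later, on RNA, and make epithelial cells include or skip exons in transcripts such as those of Fgfr2, Cd44 and Ctnnd1. ELF3 and EHF are ETS-family factors found mainly in epithelia, KLF5 is a zinc-finger factor of proliferating epithelial cells, and RAB25 is an epithelial member of the RAB11 group, which returns integrins and other membrane cargo to the cell surface. The series title concerns states of cancer cells that set their ability to metastasize, and the comparison asks how these regulators differ between the kinds of clone.

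Promoter sequence from RefSeq on GRCm38.p6 was at hand for 4 of the 10 genes, and 3 are shown. Grhl1 had higher levels in the stem-labelled than in the other libraries. Elf3 and Rab25 are the genes called lower in the stem-labelled libraries on the deposited scale. The window of Ovol2, which was not tested, is not shown. Each line is the 250 bases before the start annotated in RefSeq, 5′ to 3′ on the strand of the gene. For Elf3, Rab25 and Ovol2 that start lies inside the gene coordinates given below, so their windows overlap the gene. Capitals mark the E-box CACCTG, read on either strand, which ZEB and SNAI factors can bind, and the grainyhead motif AACCNGTT, also read on either strand. The 2 motifs can share the letters ACCTG.
Grhl1, chr12:24572037-24572286, plus strand: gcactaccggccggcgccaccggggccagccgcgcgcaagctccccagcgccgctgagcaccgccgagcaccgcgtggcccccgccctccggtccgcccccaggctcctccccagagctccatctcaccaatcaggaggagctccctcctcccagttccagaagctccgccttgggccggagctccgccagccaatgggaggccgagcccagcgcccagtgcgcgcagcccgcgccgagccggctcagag
Elf3, chr1:135258473-135258722, minus strand: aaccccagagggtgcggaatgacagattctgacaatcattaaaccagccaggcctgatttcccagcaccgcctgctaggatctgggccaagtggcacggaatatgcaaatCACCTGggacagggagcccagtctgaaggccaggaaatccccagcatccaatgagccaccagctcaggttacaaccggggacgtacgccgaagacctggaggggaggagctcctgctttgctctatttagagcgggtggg
Rab25, chr3:88548280-88548529, minus strand: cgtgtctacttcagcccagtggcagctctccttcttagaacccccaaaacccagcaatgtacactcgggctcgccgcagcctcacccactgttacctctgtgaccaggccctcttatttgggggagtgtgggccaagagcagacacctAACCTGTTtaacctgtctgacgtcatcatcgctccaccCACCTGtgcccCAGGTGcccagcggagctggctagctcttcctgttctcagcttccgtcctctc
The Rab25 window held 2 E-boxes and 1 grainyhead match, and the Elf3 window held 1 E-box. The window of Grhl1, a second annotated start of Grhl1 and the window of Ovol2 held neither. Of 32851 mouse promoter windows of this length, 17.2% held the E-box and 1.79% held the grainyhead motif. A match is a description of the letters and not a measured binding site.

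Levels are RPKM, reads scaled by gene length and by the library total that the authors used. Changes are log2 differences of RPKM + 1, stem-labelled minus other, ± SE from limma, and the added 1 shrinks the change of a low gene. Reads assigned to genes numbered 21196572 to 22838870 in the stem-labelled and 15357608 to 16830762 in the other libraries, which is 0.658 to 0.757 and 1.23 to 1.53 of the authors' library totals. Genes were tested if at least 3 libraries reached 1 RPKM, and of the 10097 tested 55.2% passed an adjusted p under 0.05, 29.9% higher and 25.4% lower in the stem-labelled libraries. The groups did not overlap for 63.5%, with the stem-labelled libraries above for 35.7% and below for 27.8%. The median change of all tested genes was 0.11, and it was 0.86 when values were rescaled to the reads summed over genes. Long genes tended to be higher in the stem-labelled libraries and short genes lower: the tenth of genes with the shortest models had a median change of -1.17, and the tenth with the longest had 0.71. Values with length and GC content corrected for (25.8% of tested genes called higher and 22% lower) and on rescaling (58.7% higher and 12.3% lower) are therefore set beside the changes below.

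The epithelial keratins Krt8 and Krt18 were abundant in every library, and 5 epithelial markers together reached 913 to 1399.7 RPKM in the stem-labelled and 1872 to 3464 RPKM in the other libraries. Krt8 and Krt18 made most of that sum, and the 5 markers did not move together. Krt8, Krt18 and Krt19 had lower means in the stem-labelled libraries. Epcam was nearly level (55.2 against 56.2 RPKM), and Cdh1 was higher (68.9 against 16.0 RPKM). Of 7 fibroblast markers 3 were listed, with a summed level of 1.67 to 3.38 RPKM against 0.396 to 1.01 RPKM, nearly all of it Pdgfra, while Col1a1 and Dcn stayed at or below 0.0854 RPKM. Of 7 leukocyte markers 4 were listed, and Ptprc, Csf1r and Itgam were at or near 0 while Cd68 made the sum of 12.3 to 39.9 RPKM against 6.09 to 29.3 RPKM. The 3 endothelial markers listed of 5 summed to at most 0.0895 RPKM. The part of the Pdgfra difference in the results was not tested.

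On the deposited scale Klf5 and Grhl2 rose in the stem-labelled libraries, and Elf3 and Rab25 fell. Grhl2 lost its call after the correction for length and GC content, and Elf3 lost its call on rescaling. Rab25 reached the filter only through the other libraries, where it is high. Its place among the 8 genes tested, and so in the counts below, already required a difference. Grhl1 had 310 reads in stem-labelled against 10 in other libraries but was below the filter on level, as was Ovol2, and neither was tested with the rest. Esrp1, Esrp2, Ovol1 and Ehf did not pass the test. Of the 8 genes tested 4 were called, against 55.2% of all tested genes, with 2 higher and 2 lower, so the share called was near the background. The groups did not overlap for 5 of the 8, against 63.5% of all tested genes, nor for Grhl1, which was not tested. Under the alternatives used below, the share of all tested genes called was 47.8% with the correction, 71.0% on rescaling, 51.6% with the replicate block and 42.6% with the block and the correction. It was 28.1% with no filter, 58.4% among genes with a mean of at least 5 RPKM, 54.2% by limma-voom on reads and 32.4% by limma-voom with no filter. Leaving out stem-labelled replicates 1, 2 and 3 in turn gave 47.7%, 47.5% and 47.0%, and leaving out other replicates 1, 2 and 3 gave 50.7%, 55.0% and 48.5%. In RNA from pooled cells, fewer cells with a transcript and less transcript per cell cannot be told apart.

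**Figure D1:**
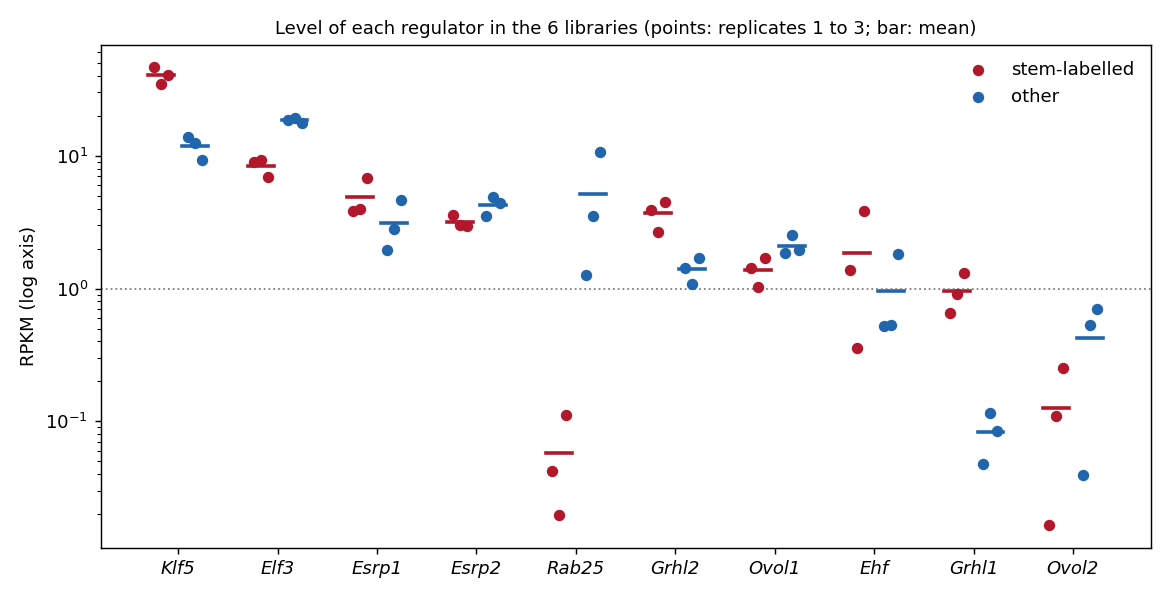
Level of each of the 10 genes in RPKM on a log axis, with 1 point per library (red stem-labelled, blue other, replicates 1 to 3 from left to right) and a bar at the group mean; the dotted line is 1 RPKM. Klf5, Grhl2 and Grhl1 have all red points above all blue points, and Elf3, Ovol1 and Rab25 have all red points below all blue points.

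Esrp1 (ENSMUSG00000040728, chr4:11331933-11386783 on GRCm38) and Esrp2 (ENSMUSG00000084128, chr8:106130319-106136974) encode paired RNA-binding proteins that act on many of the same exons. Esrp1 stood at 3.85, 3.98 and 6.77 RPKM in stem-labelled replicates 1 to 3 and at 1.96, 2.79 and 4.62 RPKM in other replicates 1 to 3. Replicate 3 was the highest of each group, and its value in the other clones lay above 2 stem-labelled libraries. The change was 0.53 ± 0.28 (limma adjusted p = 0.142), -0.24 after the correction and 1.26 on rescaling, where it passed (adjusted p = 0.00217). It also passed without replicate 3 of the other clones (0.77, adjusted p = 0.0352). Esrp2 stood at 3.58, 2.99 and 2.96 RPKM against 3.50, 4.87 and 4.42 RPKM, so replicate 1 of each group was nearly level. Its change was -0.33 ± 0.19 (limma adjusted p = 0.173), -0.34 after the correction and 0.41 on rescaling. Exons of both genes overlap exons of genes on the opposite strand, among them Nfatc3 for Esrp2, and the strand used in counting is not stated. Gene-level values hold no exon usage, so the activity of either protein was not measured.

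Within a library the balance of the pair can be read without any library scaling. The ratio of Esrp1 to Esrp2 was 1.08, 1.33 and 2.28 in the stem-labelled and 0.559, 0.573 and 1.05 in the other libraries. The groups did not overlap, although 1.08 and 1.05 are close. The mean log2 ratio was 0.57 ± 0.56 against -0.53 ± 0.51 (SD, n = 3; exact permutation test, two-sided p = 0.1, the smallest that 3 libraries against 3 allow). Esrp1 is the longer gene, with 6305 against 4340 bases, and the difference between the changes of the pair shrank from 0.85 to 0.10 with the correction for length and GC content.

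Of 12 genes that hold exons known to depend on ESRP proteins, 8 rose, 0 fell and 4 did not pass (limma; 1 was lower at an unadjusted p under 0.05, and limma-voom on reads called 8 higher and 1 lower). Of all tested genes 29.9% rose and 25.4% fell. The median change was 0.70, against 0.11 for all tested genes. The 12 genes are long, from 4367 to 21452 bases. Among all genes in the range from 4339 to 5197 bases 37.1% passed as higher, and from 8322 to 38847 bases 59.5% did. Arhgef11, Ctnnd1 and Enah, 3 of the 8 that rose, reached the filter only through the stem-labelled libraries, where they are higher. Their place in the test thus already required a difference. After the correction 3 of the 12 rose, against 25.8% of all tested genes, and the median was -0.09. On rescaling 11 rose, against 58.7%, with a median of 1.34 against 0.86 for all genes. Fgfr2, a fibroblast growth factor receptor with epithelial and mesenchymal exon forms, stood at 8.57, 15.5 and 23.9 RPKM against 1.15, 1.21 and 1.34 RPKM, a change of 2.82 ± 0.31 (limma adjusted p = 0.000174), 1.80 after the correction and 3.51 on rescaling. The 3 other genes of highest level in this list did not pass on the deposited scale or after the correction. Cd44, a hyaluronan receptor, stood at 0.42 ± 0.24, at -0.11 after the correction and at 1.33 on rescaling, where it passed (limma adjusted p = 0.000879). The polarity scaffold gene Scrib stood at -0.51 ± 0.22, at -0.31 after the correction and at 0.39 on rescaling. The exocyst gene Exoc7 stood at -0.17 ± 0.23, at -0.18 after the correction and at 0.71 on rescaling, where it passed (limma adjusted p = 0.028). Among 11 other regulators of exon choice 6 missed the threshold (median -0.23). The rest were 3 that rose and 2 that fell, against 29.9% and 25.4% of all tested genes. Rbm47, 1 of the 3 that rose, reached the filter only through the stem-labelled libraries. The 4 of highest level, Ptbp1, Hnrnpm, Khdrbs1 and Srsf1, did not pass on the deposited scale, with changes of -0.34, -0.25, 0.11 and 0.52. After the correction Ptbp1 (-0.73, limma adjusted p = 0.0455) and Hnrnpm (-0.85, adjusted p = 0.00396) passed as lower and Srsf1 (0.59, adjusted p = 0.0275) as higher, while Khdrbs1 did not pass (-0.35). On rescaling Hnrnpm, Khdrbs1 and Srsf1 passed as higher, at 0.67, 1.002 and 1.41, and Ptbp1 did not pass (0.59). After the correction 5 of the 11 fell and 2 rose, and on rescaling 6 rose.

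Grhl1 (ENSMUSG00000020656, chr12:24572287-24617391) and Grhl2 (ENSMUSG00000022286, chr15:37233036-37363569) encode grainyhead-like factors of surface epithelia. Grhl2 stood at 3.88, 2.68 and 4.51 RPKM in the stem-labelled and 1.42, 1.08 and 1.70 RPKM in the other libraries, with no overlap. It rose by 0.96 ± 0.21 (limma adjusted p = 0.0045), from 1.40 ± 0.308 to 3.69 ± 0.931 RPKM. After the correction the change was 0.24 and missed the threshold (adjusted p = 0.379), and on rescaling it was 1.60 (adjusted p = 0.00013). Grhl2 has 5506 bases, and among all genes in the range from 5197 to 6336 bases 42.6% passed as higher, with a median change of 0.46. GENCODE M21 gives Grhl2 8613 exonic bases, and among genes in the range from 8322 to 38847 bases 59.5% passed as higher. Exon sequence of Grhl2 overlaps that of Gm16136 on the opposite strand.

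Grhl1 stood at 0.652, 0.914 and 1.31 RPKM against 0.0479, 0.115 and 0.0851 RPKM. Behind these levels were 65, 97 and 148 reads in stem-labelled replicates 1 to 3 and 2, 5 and 3 reads in other replicates 1 to 3. Every stem-labelled library lay far above every other one, although the highest level was only 1.31 RPKM. Over the pooled reads of each group the level was 11.7 times higher on the authors' totals (95% interval from counting 6.29 to 24.7) and 22.5 times higher per read in genes (12.1 to 47.4). These intervals cover counting error only. With no filter the change was 0.84 (limma adjusted p = 0.00735), and limma-voom on reads with no filter gave 3.22 (adjusted p = 0.00172). Both fits include genes of very few reads, and the second was chosen after the data were seen. No exon of Grhl1 overlaps an exon of another annotated gene. None of the 50-base stretches of its longest transcript occurs in a transcript of another gene. GENCODE M21 gives Grhl1 5539 exonic bases against 3500 in the deposited model, and its RPKM uses the shorter model.

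The ratio of Grhl2 to Grhl1 was 5.96, 2.93 and 3.43 in the stem-labelled and 29.6, 9.41 and 19.9 in the other libraries. Grhl2 was thus the more abundant of the pair in every library, and by a wider margin in the other clones. The mean log2 ratio was 1.97 ± 0.54 against 4.15 ± 0.84 (SD, n = 3; exact permutation test, two-sided p = 0.1). The third gene of the family, Grhl3, had 9, 75 and 26 reads against 1, 2 and 1, and it is named because of these values and was below the filter.

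Ovol1 (ENSMUSG00000024922, chr19:5549137-5560575) and Ovol2 (ENSMUSG00000037279, chr2:144305175-144332146) encode zinc-finger repressors of mesenchymal genes. Ovol1 stood at 1.43, 1.03 and 1.70 RPKM in the stem-labelled and 1.85, 2.52 and 1.95 RPKM in the other libraries. All stem-labelled values were lower, by a small margin. The change was -0.38 ± 0.19 (limma adjusted p = 0.116), -0.42 after the correction and 0.21 on rescaling. Ovol2 stood at 0.0166, 0.109 and 0.25 RPKM against 0.0397, 0.532 and 0.705 RPKM, from 25 and 30 reads in all. Replicate 1 of each group held 1 read, and the groups overlapped. The change was -0.32 and had limma adjusted p = 0.281 with no filter. Exons of both OVOL genes overlap exons of genes on the opposite strand.

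Of 6 repressors of the epithelial programme 5 were listed and 2 reached the filter. Twist1 stood at 43.6, 41.7 and 34.5 RPKM in the stem-labelled and 14.1, 12.4 and 11.9 RPKM in the other libraries and rose by 1.57 ± 0.20 (limma adjusted p = 0.000328), by 2.79 after the correction and by 2.46 on rescaling. Snai1 did not pass, with a change of -0.68 ± 0.27 (limma adjusted p = 0.0539) that was positive with the correction (0.57) and on rescaling (0.20). Without stem-labelled replicate 2 (-0.91) or other replicate 1 (-0.82) Snai1 passed as lower. With a mean of at least 5 RPKM (-0.68) and by limma-voom on reads (-0.86) it also did, but under none of the remaining alternatives. Zeb2 stood at 0.463 ± 0.186 against 0.217 ± 0.0584 RPKM. Zeb1, the factor best known for repressing ESRP, GRHL and OVOL genes, had 4, 3 and 6 reads in the stem-labelled and 0, 1 and 0 reads in the other libraries. Twist2 had 7, 7 and 9 reads against 0 in each of the other libraries.

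Elf3 (ENSMUSG00000003051, chr1:135253575-135258568) and Ehf (ENSMUSG00000012350, chr2:103263433-103303278) encode related ETS factors that drive epithelial differentiation genes. Elf3 stood at 8.92, 9.37 and 6.88 RPKM in the stem-labelled and 18.7, 19.3 and 17.6 RPKM in the other libraries. The groups were well apart, and the other libraries had the lowest relative spread of all 10 genes, with a coefficient of variation of 4.73%. Elf3 fell by 1.06 on the log2 scale, with SE 0.20 (limma adjusted p = 0.00183). After the correction the change was -0.43 (adjusted p = 0.0462), and combined with a replicate block it missed the threshold (adjusted p = 0.111). On rescaling to reads in genes it was -0.20 (adjusted p = 0.467), with 11.8, 12.4 and 10.4 against 13.2, 15.6 and 11.5 rescaled RPKM. On that scale the groups overlapped. Among genes in the range from 1790 to 2425 bases, which holds Elf3, 35.8% passed as lower. An exon of Elf3 overlaps one of Gm26642 on the opposite strand.

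Ehf varied more between libraries of 1 group than between the groups. It stood at 1.38, 0.355 and 3.81 RPKM in the stem-labelled and 0.527, 0.533 and 1.83 RPKM in the other libraries. The highest stem-labelled library was 10.7 times the lowest, and replicate 3 was the highest of each group, as for Esrp1. The change was 0.41 ± 0.43 (limma adjusted p = 0.438), 0.23 after the correction and 0.90 on rescaling, and it was -0.07 without replicate 3 of the stem-labelled clones. The ratio of Elf3 to Ehf was 6.47, 26.4 and 1.81 against 35.5, 36.2 and 9.57, and these overlapped (exact permutation test, two-sided p = 0.2).

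Klf5 (ENSMUSG00000005148, chr14:99298691-99313405) had the highest level of the 10 genes in the stem-labelled libraries. It stood at 46.2, 34.4 and 40.2 RPKM there and at 13.9, 12.5 and 9.29 RPKM in the other libraries, from 6292 and 715 reads. The lowest stem-labelled library was well above the highest of the others. Klf5 rose by 1.68 ± 0.23 (limma adjusted p = 0.000393), from 11.9 ± 2.38 to 40.3 ± 5.89 RPKM. The rise was 2.05 after the correction and 2.57 on rescaling, and the gene was called under each of the 17 alternatives run. The deposited length of Klf5 is 1721 bases, and among genes in the range from 1075 to 1789 bases 7.23% passed as higher and 48.5% as lower. GENCODE M21 gives the gene 5201 exonic bases and an end 1631 bases further on, and among genes in the range from 5197 to 6336 bases 42.6% passed as higher. The level and the corrected value of Klf5 both use the shorter model, and no correction with the longer one was run.

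Among 15 relatives of the ETS, KLF, GRHL and OVOL members, 10 were tested, of which 7 rose, 1 fell and 2 did not pass, with a median of 0.87. Of all tested genes 29.9% rose, with a median of 0.11. After the correction 4 relatives rose and their median was 0.46, against 25.8% and 0.07 for all tested genes. On rescaling 9 rose with a median of 1.57, against 58.7% and 0.86. Klf13 rose from 1.21 ± 0.237 to 8.96 ± 0.429 RPKM (2.18 ± 0.18, limma adjusted p = 0.000117), by 1.76 after the correction and by 2.84 on rescaling. Klf10, a gene induced by TGF-beta, rose by 0.69 ± 0.25 (limma adjusted p = 0.0397) and by 1.56 on rescaling, but after the correction it did not pass (0.50, adjusted p = 0.103). Klf2, a factor of quiescent endothelium and lymphocytes, changed by -0.90 ± 0.34 (limma adjusted p = 0.0461), but its groups overlapped, and it stood at 0.29 after the correction and -0.04 on rescaling. Klf6 did not pass on the deposited scale (0.28 ± 0.27) or after the correction (0.29), and on rescaling it did (1.14, limma adjusted p = 0.00445).

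Rab25 (ENSMUSG00000008601, chr3:88542029-88548300) had the largest change of the 10 genes on the deposited scale, whereas that of Klf5 was larger after the correction and on rescaling. It stood at 0.0420, 0.0197 and 0.111 RPKM in the stem-labelled libraries, from 2, 1 and 6 reads. In the other libraries it stood at 1.25, 3.51 and 10.6 RPKM, from 25, 73 and 179 reads. All stem-labelled libraries were near 0, and the other libraries spread over 8.47 times. The change was -2.21 ± 0.48 (limma adjusted p = 0.00369), -1.38 after the correction (adjusted p = 0.0399) and -1.84 on rescaling (adjusted p = 0.00112). Over pooled reads the level in the other clones was 81.4 times higher on the authors' totals (95% counting interval 42.2 to 179.8) and 42.4 times higher per read in genes (22.02 to 93.8). Without replicate 3 of the other clones, which holds 179 of the 277 reads, the ratio on the authors' totals was 40.7 (20.6 to 91.6), and without replicate 3 of the stem-labelled clones, which holds 6 of the 9 reads, it was 157.7 (53.4 to 769.5). Rab25 reached the filter only through the other libraries, where it is high, so its place among tested genes already required a difference. Without replicate 3 of the other clones the change was -1.59 with limma adjusted p = 0.00126, under the same filter.

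**Figure D2:**
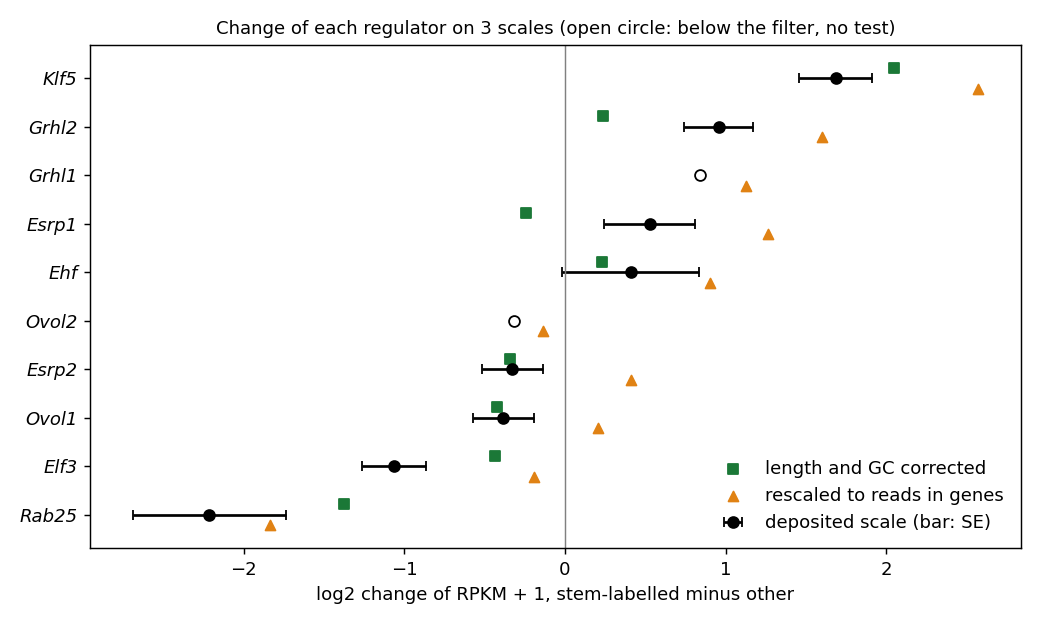
Change of each gene as the log2 difference of RPKM + 1 (stem-labelled minus other) on the deposited scale (black, bar SE, open where the gene was below the filter), after the correction for length and GC content (green squares) and rescaled to reads in genes (orange triangles). Klf5, Grhl2 and Ehf lie right of 0 and Rab25 and Elf3 left of 0 on all 3 scales, while Esrp1, Esrp2 and Ovol1 change side.

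Of the other genes with epithelial roles, 3 are named here because of their values. As for Rab25, their stem-labelled libraries all lay below the others, and replicate 3 of the other clones was the highest. The order of the remaining libraries was not the same. Cldn7, a claudin of epithelial junctions, had 1, 6 and 11 reads in the stem-labelled and 13, 13 and 569 reads in the other libraries. Ap1m2, the epithelial form of a clathrin adaptor subunit, had 0, 0 and 1 reads against 11, 4 and 111. Krt19, a keratin of simple epithelia, stood at 0.0379, 9.49 and 3.67 RPKM against 16.7, 60.2 and 96.1 RPKM. For Rab25, Cldn7, Ap1m2 and Krt19 alike, replicate 3 of the other clones was the highest of all 6 libraries. The pattern was not particular to them. Lsr in the junction list, Krt8, Krt18 and Rab11a also had all stem-labelled libraries below the others and replicate 3 of the other clones highest. Of these, Krt18 and Rab11a fell on the deposited scale, while Lsr and Krt8 did not pass. Other genes that fell in the junction list did not rank this way: Cldn4, Cldn3, Crb3 and Prss8 were highest in replicate 1 of the other clones, at 245, 84.7, 45.9 and 30.7 RPKM. Cldn7 and Ap1m2 were below the filter and were not tested.

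Of 11 genes of the wider RAB11 recycling machinery 8 were tested, and on the deposited scale 2 rose and 2 fell, while 4 missed the threshold (median -0.01). After the correction 3 rose and 2 fell, and on rescaling 5 rose and 0 fell (limma; 0 were lower at an unadjusted p under 0.05, and limma-voom called 2 higher and 2 lower). Rab11a, the widely expressed relative of Rab25, stood at 7.76, 9.07 and 9.37 RPKM against 19.9, 16.6 and 30.9 RPKM and fell by 1.23 on the log2 scale (SE 0.25, limma adjusted p = 0.00292), and by 0.54 after the correction (adjusted p = 0.0434). Rab11b stood at 14.6 ± 0.639 against 25.5 ± 6.85 RPKM (-0.73 ± 0.23, limma adjusted p = 0.024). On rescaling these changes were -0.35 and 0.16, and neither passed. The fall of Rab25 was the larger of the 3 on each scale but for Rab11b after the correction, at -1.46 against -1.38. Rab8a and Rab11fip5 did not pass on the deposited scale (0.37 and -0.12) or after the correction (-0.24 and -0.09), and on rescaling both passed as higher (1.25 and 0.75).

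Junction and protease genes that grainyhead-like and related factors are known to maintain moved in both directions. Of 16 genes 13 were tested, of which 2 rose, 4 fell and 7 did not pass, with a median of -0.37. Of all tested genes 29.9% rose and 25.4% fell. Cdh1, which encodes E-cadherin, and Cldn4, a claudin, stood at 68.9 ± 9.0 against 16.0 ± 1.98 and at 7.72 ± 3.56 against 175 ± 62.7 RPKM. Epcam stood at 55.2 ± 4.78 against 56.2 ± 2.51 RPKM, the protease gene St14 at 46.5 ± 1.39 against 51.4 ± 11.4 RPKM and its inhibitor gene Spint2 at 84.2 ± 10.8 against 120.5 ± 23.0 RPKM. Cdh1 rose by 2.04 (1.45 after the correction, 2.94 on rescaling) and Cldn4 changed by -4.36 (-3.46 and -3.47). Epcam, St14 and Spint2 did not pass on the deposited scale, with changes of -0.03, -0.12 and -0.50. After the correction 2 genes rose and 4 fell, as before, but the genes that fell were not the same. Cldn3 and Prss8 lost the call (limma adjusted p = 0.0833 and 0.148), and Spint2 (-1.09, adjusted p = 0.00237) and St14 (-0.63, adjusted p = 0.0251) gained it. On rescaling 5 rose and 3 fell, against 58.7% and 12.3% of all tested genes. Epcam (0.90) and St14 (0.80) were among those that rose, and Spint2 was not past the threshold (0.43).

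The order of the 10 genes by level differed between the groups. In the stem-labelled libraries Klf5 led with 40.3 ± 5.89 RPKM, followed by Elf3 with 8.39 ± 1.33, Esrp1 with 4.87 ± 1.65, Grhl2 with 3.69 ± 0.931, Esrp2 with 3.18 ± 0.35, Ehf with 1.85 ± 1.77, Ovol1 with 1.39 ± 0.336, Grhl1 with 0.96 ± 0.333, Ovol2 with 0.125 ± 0.117 and Rab25 with 0.0577 ± 0.0478 RPKM (SD, n = 3). Only Klf5 and Elf3, Elf3 and Esrp1, and Grhl1 and Ovol2 were neighbours whose libraries did not overlap. In the other libraries Elf3 led with 18.5 ± 0.876 RPKM, followed by Klf5 with 11.9 ± 2.38, Rab25 with 5.13 ± 4.89, Esrp2 with 4.26 ± 0.698, Esrp1 with 3.12 ± 1.36, Ovol1 with 2.11 ± 0.361, Grhl2 with 1.40 ± 0.308, Ehf with 0.965 ± 0.753, Ovol2 with 0.426 ± 0.345 and Grhl1 with 0.0826 ± 0.0335 RPKM. There only Elf3 and Klf5, and Ovol1 and Grhl2, did not overlap as neighbours.

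As a share of the summed RPKM of the 10 genes, which needs no library scaling, Klf5 took 66.0%, 61.6% and 58.7% in the stem-labelled and 32.3%, 26.2% and 17.6% in the other libraries. Elf3 took 12.7%, 16.8% and 10.0% against 43.2%, 40.4% and 33.3%. Rab25 took at most 0.163% of the sum in a stem-labelled library, against 2.90%, 7.34% and 20.1% in the others. None of these shares overlapped between the groups. Shares of 1 total are tied to each other, so a higher share of Klf5 lowers the rest. Ranked among all 19179 genes of a library, Klf5 stood at the 92.7th to 95.1st percentile in the stem-labelled and the 78.7th to 83.4th in the other libraries. Elf3 stood at the 73.7th to 78.3rd percentile against the 85.0th to 86.2nd.

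**Figure D3:**
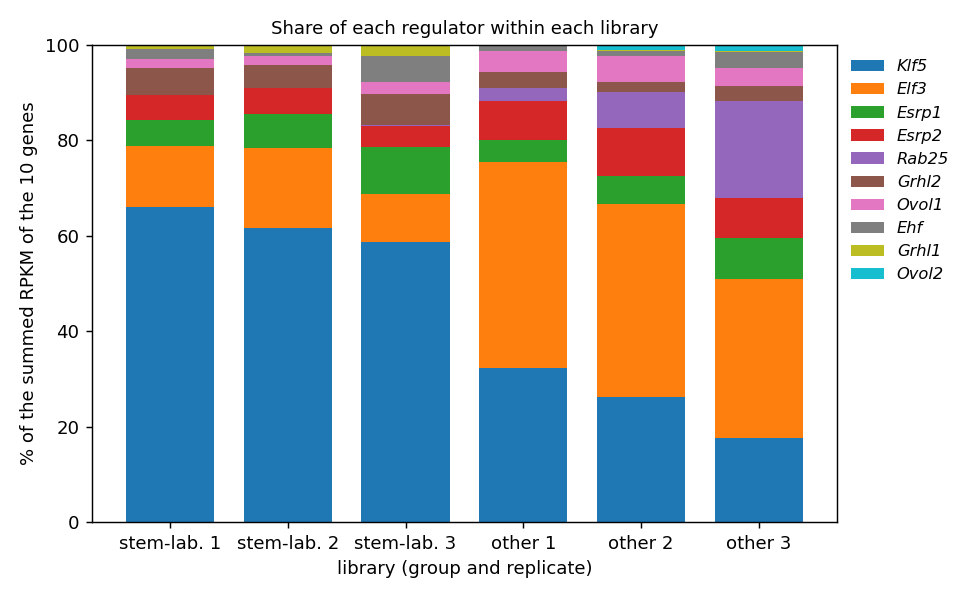
Share of each of the 10 genes in their summed RPKM, in % of that sum, with 1 bar per library. Klf5 (blue) fills 58.7% to 66.0% of the stem-labelled bars and 17.6% to 32.3% of the others, and Rab25 (purple) fills at most 0.163% of a stem-labelled bar.

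The ratio of Klf5 to Elf3 within a library, a pair chosen after the values were seen, was 5.18, 3.68 and 5.85 in the stem-labelled and 0.746, 0.649 and 0.529 in the other libraries. Klf5 was the higher of the 2 in every stem-labelled library and Elf3 in every other library. The mean log2 ratio was 2.27 ± 0.35 against -0.66 ± 0.25 (SD, n = 3), and since the pair was picked for this difference it was not tested. Their deposited lengths are 1721 and 2217 bases, and the difference between their changes was 2.75 before and 2.48 after the correction for length and GC content. That correction used the deposited length of Klf5, whereas GENCODE M21 gives it 5201 exonic bases. The difference with the longer model was not computed. The other 4 pairs were tested, and adjusted over them the exact permutation p was 0.2 for Esrp1 and Esrp2 and for Grhl2 and Grhl1, 0.267 for Elf3 and Ehf and 0.5 for Ovol1 and Ovol2. The ratio of Ovol1 to Ovol2 was 86.0, 9.47 and 6.81 in the stem-labelled and 46.6, 4.74 and 2.77 in the other libraries, and it rests on the few reads of Ovol2.

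**Figure D4:**
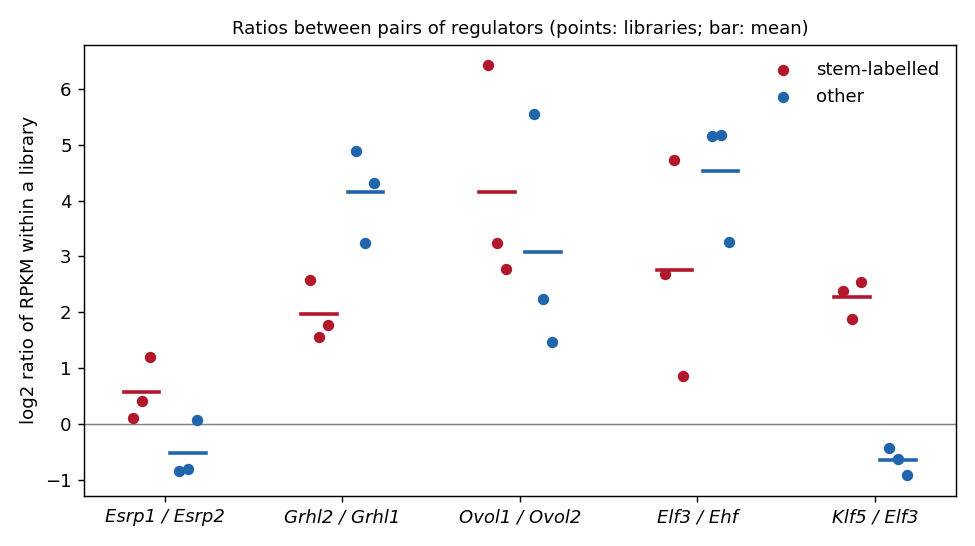
Ratio of RPKM between 5 pairs of the genes within each library, as log2, with 1 point per library (red stem-labelled, blue other) and a bar at the group mean; 0 means equal levels. The points of Klf5 over Elf3 lie between 1.88 and 2.55 in the stem-labelled and between -0.92 and -0.42 in the other libraries, and those of Ovol1 over Ovol2 overlap.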

How the data were processed

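Gene-level RPKM values were deposited by the authors, 1 table per library, and the unit was read from the values: each value times its gene length was a whole multiple of 1 step in its library (tolerance 0.01, 100% of values). The submitters' processing notes name Bowtie2 2.0.6, TopHat2 2.0.9 and mm9 with no role. The counting program and strand are not given in the sources used here. Of the identifiers 99.6% were in GENCODE M21, and 80.5% of those matched GRCm38 at both ends of the gene, so coordinates are given on that build. Spreadsheet conversion of 25 symbols was undone by identifier.

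The tissue label gave the group and the title the replicate number. The labels do not say which clones or experiment each library came from, so p-values measure the spread between these libraries. log2(RPKM + 1) was tested with limma 3.58.1 in R 4.3.3 (variance trend, two-sided, Benjamini-Hochberg over 10097 genes, threshold 0.05), after a filter of at least 1 RPKM in at least 3 libraries that left out 9082 genes and 2 of the 10 members. The correction regressed deviations from gene means on natural splines (5 degrees of freedom) of log2 length and GC content, known for 99.9% of tested genes. Alternatives were the replicate block with and without that correction, each library left out, upper-quartile and summed-read scaling, no filter, a mean of at least 5 RPKM, a pseudocount of 0.1, no trend and limma-voom on recovered reads with median-of-ratios scaling. Unless the filter was varied, the same genes were tested. limma-voom with no filter, and pooled-read ratios with each library left out, were added after seeing the data. All 10 members were described, and from each other list up to 4 genes with the highest mean RPKM were named, beside genes said to be chosen by their values. The members and lists were chosen with earlier results of these data known. Counting intervals are exact (Clopper-Pearson, 95%), and permutation tests used scipy 1.17.1.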

Additional observations from a re-analysis of the deposited data

How the results depend on the processing

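The change of Klf5 kept its direction and its call under each of the 17 alternatives. Rab25 entered the filtered tests only through the other libraries, so its calls there are no sign of stability, and with no filter it had limma adjusted p = 0.034. Same-numbered libraries did not deviate together (correlations of -0.12, 0.03 and -0.08), so the numbers were not treated as pairs. With the replicate block 2 members were called higher and 2 lower, as without it, and 2735 and 2477 of all genes against 3014 and 2563. The correction combined with the replicate block left 1 member higher and 1 lower, and the correction alone left 1 higher. With a mean of at least 5 RPKM, which leaves 5951 genes, 1 member was higher, 1 was lower, 1405 genes were higher and 2072 lower, so that lower calls outnumbered higher ones. Rescaled to summed reads, 5926 genes were higher and 1245 lower, and 3 members were higher and 1 lower. Leaving out 1 library at a time gave 2539 to 3027 genes higher, 2184 to 2528 lower, 2 to 3 members higher and 2 lower in each case. Among named context genes called under either setting, the sign reversed on rescaling for Epcam (0.90), Exoc7 (0.71), Hnrnpm (0.67), Rab11b (0.16), Rab11fip5 (0.75) and St14 (0.80), where the median of all genes was 0.86, and for Klf2 with the correction, with and without the replicate block (0.29). Without a call under either setting, it also changed on rescaling for Scrib (0.39), Spint2 (0.43), Ptbp1 (0.59), Snai1 (0.20) and Krt8 (0.04). The cause of these shifts was not tested. Depth limits Ovol2, Zeb1 and the stem-labelled values of Rab25, which rest on 0 to 17 reads per library.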
